A study of Mus musculus with 3 samples.

Results

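Peptidases and endocytic receptors of the apical brush border were followed in the developing mouse kidney. The group holds 10 genes: Dpp4, Anpep, Enpep, Mme, Dpep1, Ggt1, Mep1a and Mep1b for the peptidases, and Lrp2 and Cubn for the receptors. The list was selected on gene function and on earlier results from the same arrays, Dpp4 being among the lowest ratios of the data set and Anpep, Dpep1 and Lrp2 having been described. The values of the group are therefore given as a description, and no test of the group was made. Array features were assigned by gene symbol, and 9 of the 10 genes had a feature with a value on every array, against 14433 named genes in all. Those 9 genes were covered by 11 features, since Mep1b and Lrp2 had 2 each. Ggt1, the gamma-glutamyl transferase that starts the breakdown of glutathione, had no feature under its symbol and is not described further.

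Each of 3 arrays carried RNA of 11.5 dpc (days post coitum) metanephroi, the kidney rudiments just entered by the ureteric bud, in channel 1 and RNA of 13.5 dpc fetal kidney in channel 2. The tissue was microdissected from normal CD1 mice, and embryos of both sexes were pooled, so an array averages over animals and over all cell types of the rudiment. The dyes were red/green on arrays 1 and 2 and exchanged (green/red) on array 3. A positive log2 ratio is read as a higher level at 11.5 dpc, because the labels name that age first and place it in channel 1. This direction is likely but not settled, and whether array 3 was already turned to match the others is not stated.

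In the mature kidney, the brush border is the dense layer of microvilli on the lumen side of proximal tubule cells. Its surface peptidases trim filtered peptides down to amino acids and dipeptides, and the paired receptors megalin (Lrp2) and cubilin (Cubn) take up filtered proteins and vitamin carriers by endocytosis. Several of these genes are also active elsewhere: Mme in podocytes and stroma, Anpep in myeloid cells, Enpep in pericytes, and Dpp4 in several epithelia and in lymphocytes. In whole rudiments, fewer cells of a type and less RNA per cell cannot be told apart. A ratio also gives no level, so genes cannot be ranked by abundance, and no marker can show here whether a cell type was present.

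The 9 genes did not move as a block. Dpp4 and Anpep lay lower at 11.5 than at 13.5 dpc on all 3 arrays, and Dpep1 lay higher on all 3. Enpep, Mme, Mep1a, Mep1b and Cubn had one sign on arrays 1 and 2 and the opposite sign on array 3, which has the reversed dye order. Lrp2 was split between arrays 1 and 2. The median of the 9 mean log2 ratios was -0.081, between -2.65 for Dpp4 and 0.66 for Dpep1, and the median over all 19015 rows was -0.0084. By array, the median of the 9 genes was -0.59, -0.50 and 0.25, against 0.011, 0.064 and -0.091 for all rows.

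**Figure D1:**
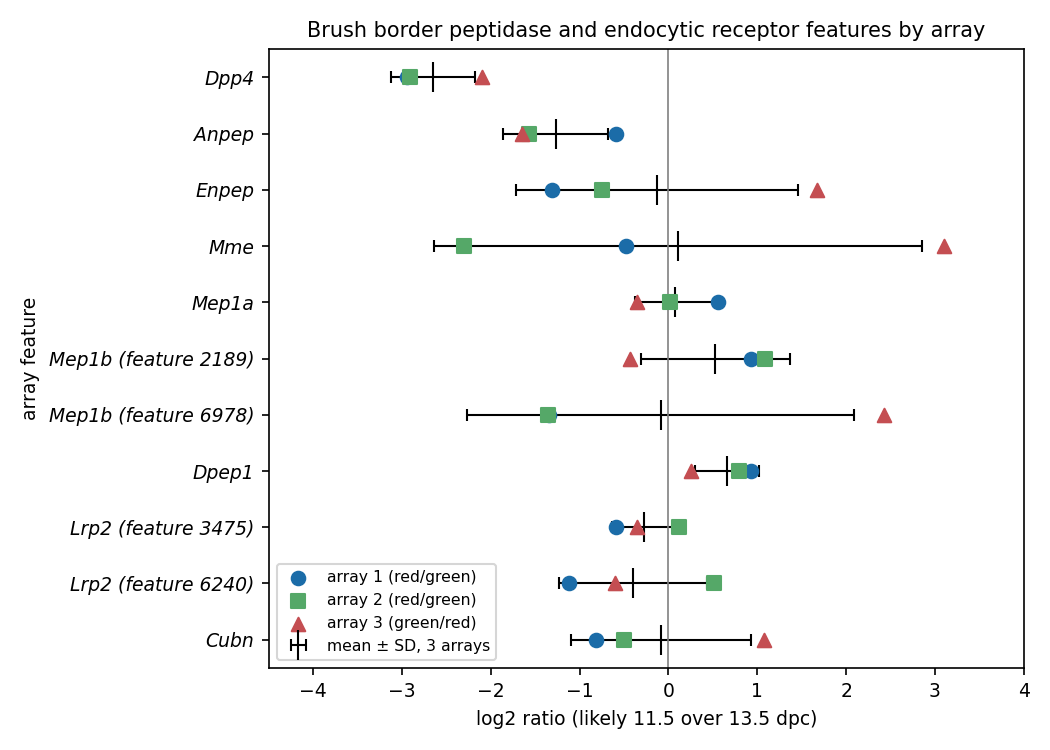
Log2 ratio (x axis, likely 11.5 over 13.5 dpc) of the 11 features of the 9 measured genes (y axis), with 1 point for each array and the mean ± SD over 3 arrays. All 3 points lie below 0 for Dpp4 and Anpep and above 0 for Dpep1, and the array 3 point of Enpep, Mme, Cubn and Mep1b feature 6978 lies far to the right of the other points.

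Of the aminopeptidases, Dpp4 had the lowest ratio. Its product clips dipeptides from the amino end of peptides that carry proline or alanine next to that end. Dpp4 had log2 ratios of -2.94, -2.91 and -2.10 on arrays 1, 2 and 3, which are 7.69-, 7.52- and 4.29-fold lower at 11.5 dpc. All of them lie far below 0, and array 3 was the least extreme. Among 20386 features with a value on every array, Dpp4 ranked 5th from the lowest on array 1, 250th on array 2 and 135th on array 3. Its mean of -2.65 ± 0.48 (SD, n = 3 arrays; 6.29-fold lower) was the 3rd lowest of the 19015 rows with array 3 as deposited and the 452nd lowest with the sign of array 3 turned. It was the 1 gene of the 9 with a ratio at least 2-fold lower on each array, a property of 0.436% of all rows, and since Dpp4 was chosen by this contrast nothing is read from that share. With array 3 turned, 0 of the 9 genes and 0.147% of all rows had that property. Without array 1 fewer arrays had to agree, and Anpep had it as well. The share of all rows was not counted for that setting, so nothing is read from it.

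Anpep encodes aminopeptidase N, which removes neutral amino acids one by one and is also the myeloid surface antigen CD13. It had log2 ratios of -0.59, -1.56 and -1.65, with a mean of -1.27 ± 0.59 (2.41-fold lower). All values lie below 0, and array 1 was the closest to it. No value of Anpep reached the range of Dpp4, whose highest value was -2.10. The mean of Anpep was the 208th lowest of all rows as deposited and the 4866th with array 3 turned. The features around it in the oligonucleotide library were also low on array 1, with a running median of -0.39. At the features of the other genes, that median ran from -0.22 (Mme and Dpep1) to 0.073 (Lrp2 feature 3475). The mean of Anpep after subtraction of such medians was -1.10. Dpp4 and Anpep made up the 2 of 9 genes negative on every array, and 18.5% of all rows had that pattern.

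Enpep encodes aminopeptidase A, which removes acidic residues and converts angiotensin II. Its log2 ratios were -1.31 and -0.75 on arrays 1 and 2 and 1.67 on array 3. The values were thus 2.47- and 1.68-fold lower at 11.5 dpc with one dye order and 3.19-fold higher with the other. The mean of -0.13 ± 1.59 hides a range of 2.98 log2 units, wider than in 95.4% of all rows.

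The sequences before the annotated start of Dpp4 and Anpep are shown because these are the genes with the same negative sign on every array. They are the 250 bases upstream of the start in RefSeq, build GRCm38.p6, 5′ to 3′ on the gene's own strand, which is the minus strand for both, at chr2:62412232-62412481 and chr7:79848211-79848460. Capitals mark matches to any of the motifs TATAAA (the TATA box), GGGCGG (the GC box), GTTAAT (the core of sites of the tubule factor HNF1) and CAAAGT (a core of HNF4 sites), searched on both strands.
Dpp4: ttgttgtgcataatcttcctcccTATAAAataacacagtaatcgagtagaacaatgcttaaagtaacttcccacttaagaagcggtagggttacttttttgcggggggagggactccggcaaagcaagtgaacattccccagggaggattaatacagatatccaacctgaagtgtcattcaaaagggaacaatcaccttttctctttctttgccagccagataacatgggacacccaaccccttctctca
Anpep: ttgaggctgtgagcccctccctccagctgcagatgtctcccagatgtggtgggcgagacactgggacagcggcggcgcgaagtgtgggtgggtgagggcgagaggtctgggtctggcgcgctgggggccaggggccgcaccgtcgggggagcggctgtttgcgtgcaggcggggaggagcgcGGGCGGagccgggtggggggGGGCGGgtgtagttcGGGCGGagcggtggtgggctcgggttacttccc

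These windows differ in base content. The Dpp4 window is 43.6% G and C with 4 CpG dinucleotides, and the Anpep window is 72.8% G and C with 23. Over 32851 windows of the same length, the median was 52.4% and 6 CpG. The Dpp4 window holds 1 TATAAA, whose first base lies at -227, and the Anpep window holds 3 GGGCGG at -68, -48 and -33, with no overlaps. TATAAA also occurred in a window of Enpep and of Ggt1, and GGGCGG in windows of Ggt1, Lrp2 and Mme. Of all windows, 12.4% hold TATAAA, 32.7% GGGCGG, 6.43% GTTAAT and 12.6% CAAAGT. Windows were found for 9 of the 10 genes (14 windows). None of these 14 held GTTAAT, and CAAAGT occurred in a window of Dpep1, Ggt1, Lrp2, Mep1a and Mme. The matches are descriptions of letters and say nothing of factor binding.

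Among the endopeptidases, Mme had the widest spread of the 9 genes. Mme encodes neprilysin, which cuts inside small peptides such as natriuretic peptides and kinins and is also known as CD10. It had log2 ratios of -0.48, -2.30 and 3.10 on arrays 1, 2 and 3. Its range of 5.40 log2 units was wider than in 99.0% of all rows, and the mean of 0.11 ± 2.75 lies far inside that spread. Array 2 gave a ratio 4.93-fold lower at 11.5 dpc and array 3 one 8.59-fold higher. The extreme ratios of these arrays were lopsided over the whole data set: 195 rows had a log2 ratio of -3 or less on array 2 and 16 a ratio of 3 or more, while on array 3 the counts were 24 and 439. A ratio of -2 or less on array 2 together with 2 or more on array 3, as for Mme, was found for 121 rows, and the reverse for 2. The part of dim spots in this was not tested, since only ratios were used.

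Mep1a and Mep1b encode the alpha and beta subunits of meprin, a metalloendopeptidase of the astacin family that is abundant in the brush border of mice. Mep1a had log2 ratios of 0.56, 0.019 and -0.35, and its mean of 0.075 ± 0.46 was smaller than its spread. The features of Mep1b, numbers 2189 and 6978 of the library, opposed each other on every array. Feature 2189 had 0.93, 1.09 and -0.43, and feature 6978 had -1.34, -1.35 and 2.43. Averaging gave -0.21, -0.13 and 1.00, with a mean of 0.22 ± 0.68, a value that neither feature shows. Both features changed sign with the dye order.

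Dpep1 was the gene with positive values throughout. It encodes the membrane dipeptidase that splits dipeptides such as the cysteinylglycine left from glutathione. Its log2 ratios were 0.93, 0.80 and 0.25, 1.90-, 1.74- and 1.19-fold higher at 11.5 dpc. Arrays 1 and 2 were close together and array 3 was lower but still above 0. The mean was 0.66 ± 0.36 (1.58-fold higher), and 94.5% of all rows had a lower mean. Positive values on all arrays were found for this 1 gene of 9 and for 16.8% of all rows.

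The receptors showed no common direction. Lrp2 encodes megalin, a very large receptor of the LDL receptor family, and had features 3475 and 6240. Feature 3475 had log2 ratios of -0.59, 0.12 and -0.35, and feature 6240 had -1.12, 0.51 and -0.60. Both were negative on arrays 1 and 3 and positive on array 2, so the features share their signs and the arrays of the same dye order do not. Their average had a mean of -0.34 ± 0.60. Cubn encodes cubilin, which has no membrane span and relies on megalin and amnionless for uptake. It had -0.82, -0.50 and 1.07, with a mean of -0.081 ± 1.01. Like Enpep and Mme it was negative with the dye order red/green and positive with green/red. Lrp2 and Cubn shared the sign of array 1 and differed on arrays 2 and 3.

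Ordered by mean, the genes ran from Dpp4 over Anpep, Lrp2, Enpep, Cubn, Mep1a, Mme and Mep1b to Dpep1. Dpp4 lay below Anpep without overlap of the 3 values. Each later neighbour in this order overlapped the next, so neighbours from Anpep upward are not separated by the spread between arrays. Over longer steps, the values of Anpep lay below all those of Mep1a, Dpep1 and the average of Mep1b. For Mep1b this rests on averaging, since feature 6978 alone had -1.34 on array 1, below the -0.59 of Anpep there.

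The pattern in which arrays 1 and 2 share a sign and array 3 has the other was found for 5 of the 9 genes and for 29.2% of all rows. In Enpep, Mme, Cubn and the average of Mep1b, arrays 1 and 2 were negative and array 3 positive. Of the Mep1b features, 6978 had these signs and 2189 the reverse. In Mep1a the signs were also the reverse, but its array 2 value was only 0.019, against a median of 0.064 over all rows. With the sign of array 3 turned, the mean log2 ratio of Mme was -1.96 ± 1.34, that of Enpep -1.24 ± 0.46, that of Cubn -0.80 ± 0.29 and that of Mep1b -0.45 ± 0.48. With that turn, Dpp4 had -1.25 ± 2.90 and Anpep -0.17 ± 1.65, because their values on array 3 then opposed the others. No single orientation of array 3 therefore gave Dpp4, Anpep, Enpep, Mme and Cubn 1 sign on every array. Arrays 1 and 2 correlated with each other at 0.27 over all rows, and array 3 correlated with them at 0.12 and -0.12 (Pearson, across genes, which are not independent replicates). By rank (Spearman), the values were 0.36 for arrays 1 and 2, and 0.13 and 0.0010 for array 3 with them. With 1 array of the reversed order, a dye effect and the particulars of array 3 cannot be told apart.

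**Figure D2:**
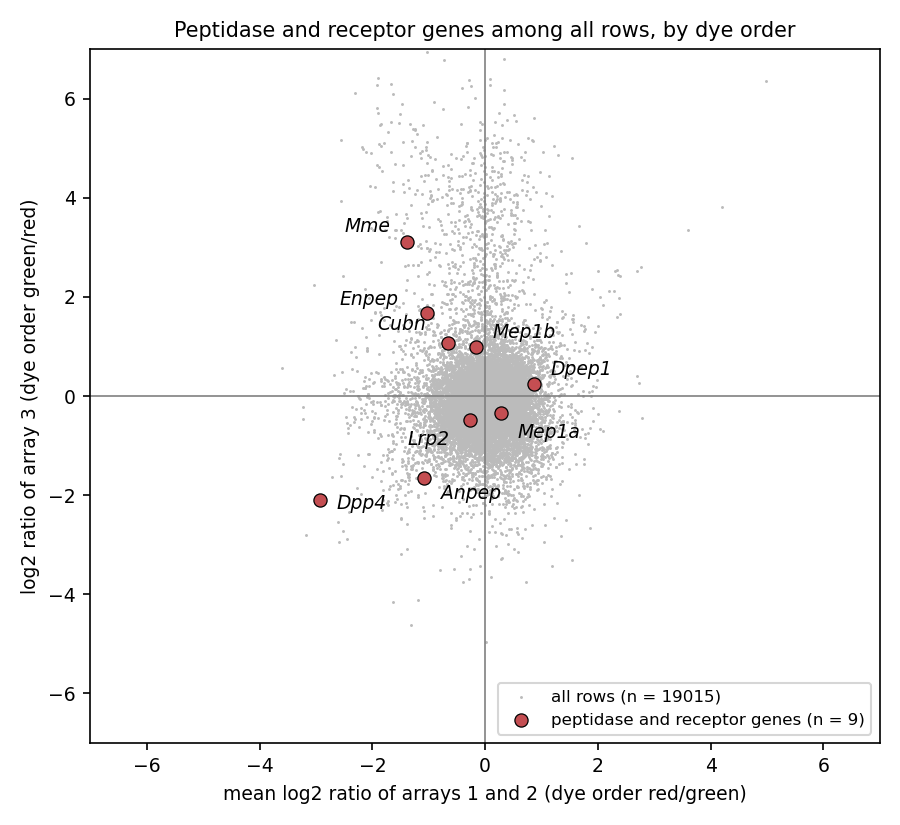
Mean log2 ratio of arrays 1 and 2 (x axis) against the log2 ratio of array 3 (y axis) for all 19015 rows (grey) and the 9 measured genes (red). Dpp4 and Anpep lie in the lower left, where the dye orders share a negative sign, Dpep1 lies in the upper right, and Mme, Enpep, Cubn and Mep1b lie in the upper left.

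In a limma fit over all 19015 rows (mean log2 ratio against 0, Benjamini-Hochberg adjusted p), 0 rows passed an adjusted p of 0.05 (0% of rows) and none of the 9 genes did. Without adjustment, 1757 rows (9.24% of all) had a limma p under 0.05, with Dpp4, Anpep and Dpep1 among them. The adjusted p was 0.326 for Dpp4, 0.471 for Anpep and 0.532 for Dpep1, and between 0.704 and 0.976 for the others. These values belong to the contrast by which the genes were chosen and are not evidence for the group. In a fit with a dye term, which leaves 1 residual degree of freedom, Dpp4 had -2.51, Anpep -1.36 and Dpep1 0.56 for age. Enpep and Cubn then had 0.32 and 0.21, and Mme 0.86. The dye term itself was -2.25 for Mme, -1.35 for Enpep and -0.87 for Cubn (adjusted p from 0.227 to 0.283).

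**Figure D3:**
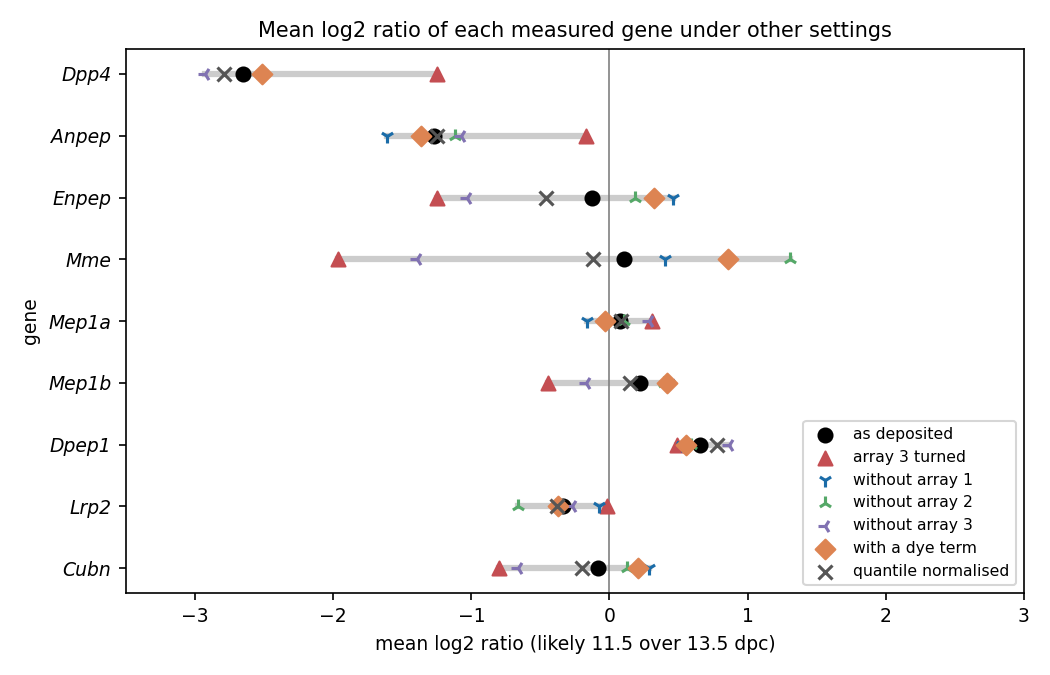
Mean log2 ratio (x axis) of each of the 9 measured genes (y axis) as deposited and under 6 other settings, with a grey bar from the lowest to the highest. Dpp4, Anpep and Lrp2 stay below 0 and Dpep1 above 0 in all of them, while Enpep, Mme, Mep1a, Mep1b and Cubn fall on both sides of 0.

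Lists of related genes were described beside the group, with 116 of 158 listed symbols measured. The symbols include Tmem27, an earlier symbol of Cltrn, which counts as not measured. Of the 116 measured genes, 0 were past limma's adjusted p of 0.05. An unadjusted limma p under 0.05 was found for 17 of the 116, against 9.24% of all rows. With array 3 turned it was found for 4 of the 116, against 1252 of all 19015 rows. The counts of genes with 1 sign on all arrays stand beside 18.5% of all rows negative and 16.8% positive, and nothing particular to a list is read from them. Relatives of the peptidases in the same enzyme families had a median of -0.18 over 21 genes, with 10 negative and 3 positive on all arrays. The astacin protease gene Tll1, a relative of the meprins, had -1.02, -0.68 and -0.40. The neprilysin relatives Phex and Mmel1 had means of -0.44 ± 0.09 and -0.55 ± 0.32. Both were named for having 1 sign on all arrays, so their spread is not compared with that of Mme. Fap, the nearest relative of Dpp4 and a protease of fibroblasts, had 0.057, 0.13 and 0.31, so it did not share the low ratio of Dpp4. Prep, a cytosolic prolyl peptidase, had 0.14 ± 0.09. Ece2, a relative of neprilysin, had 0.27 ± 0.18, the average of features with means of 0.11 and 0.44. The first of these features was -0.059 on array 2. With array 3 turned the means of Fap, Prep and Ece2 became -0.044, -0.0059 and -0.048.

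Other surface peptidases and enzymes of the brush border had a median of -0.033 over 11 genes, with 1 negative and 2 positive on all arrays. The negative one was Cltrn, collectrin, a membrane protein that carries amino acid transporters to the apical surface, with -0.98, -0.88 and -2.20. Its mean of -1.35 ± 0.74 became 0.11 with array 3 turned. Acp5, an acid phosphatase best known from osteoclasts and macrophages, had 1.10, 1.32 and 1.22, and the ectonucleotidase gene Enpp3 had 0.62 ± 0.49. Genes for microvillus structure had a median of 0.022 over 14 genes, 4 negative and 1 positive. Villin (Vil1), which bundles actin in the microvillus core, had -0.90, -0.24 and -0.50. The scaffold gene Slc9a3r2 had -0.74 ± 0.28 and the actin capping gene Eps8 -0.43 ± 0.41. Myo1a, a motor of the brush border, had 0.25 ± 0.10. This was the average of features with means of 0.049 and 0.45, the first being -0.095 on array 1. With array 3 turned, Eps8 had 0.17.

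The partners of megalin and cubilin in endocytosis had a median of -0.16 over 20 genes, with 7 negative and 3 positive on all arrays. Lrpap1, the chaperone that escorts megalin out of the endoplasmic reticulum, had 0.35, 0.99 and 0.76. Dab2, the adaptor that links megalin to clathrin coats, had 0.12, 0.19 and 0.99, a mean of 0.43 ± 0.48 that became -0.23 with array 3 turned. Its 2 features lay apart, with means of 0.87 and -0.0057. Ap2m1, a subunit of the clathrin adaptor at the plasma membrane, had -1.81, -1.28 and -1.78. Rab7, a marker of late endosomes, had -1.23 ± 0.22 and Ehd1, which recycles receptors, -0.84 ± 0.30. Arrb1 had 0.18, 0.42 and 4.60, so its mean of 1.73 rests on array 3 and became -1.33 with that array turned. The LDL receptor family had a median of 0.042 over 7 genes, Lrp1 having -0.38 ± 0.22 (0.033 with array 3 turned) and Lrp5 0.47 ± 0.12.

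Among transporters of the proximal tubule, the median was -0.11 over 20 genes, with 4 negative and 2 positive on all arrays. Of the glucose transporter genes, Slc5a2 was named from the negative and Slc5a1 from the positive genes, so their opposite signs follow from the choice. Slc2a2 had no common sign, with -0.40, 0.33 and -0.50. Slc5a2 had -0.17, -0.54 and -1.32, and Slc5a1 had 0.56, 0.63 and 0.27. The subunits of the cystine transporter, Slc7a9 and Slc3a1, had -0.33 ± 0.21 and -0.29 ± 0.18. The sulphate transporter gene Slc13a1 had 0.61 ± 0.59. With array 3 turned the mean of Slc5a2 was 0.20. The list of regulators and metabolic enzymes of the proximal tubule had a median of 0.15 over 23 genes, 4 negative and 8 positive on all arrays. It also holds the plasma protein genes Ttr and Pzp and the cadherin gene Cdh6. Pax8, a transcription factor of the earliest nephron epithelium, had -0.79 ± 0.13, and Cdh6, a cadherin of the early proximal segment, -0.40 ± 0.12, the average of features with means of 0.15 and -0.95. The plasma protein gene Pzp had -0.99, -2.46 and -0.037. Cyp4b1, Aspa and Ttr had 0.82 ± 0.34, 1.06 ± 0.73 and 0.57 ± 0.35, the last being -0.070 with array 3 turned. The hepatocyte nuclear factor gene Hnf4a, which marks the proximal tubule and drives its maturation, had 0.27, -0.57 and 1.09.

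**Figure D4:**
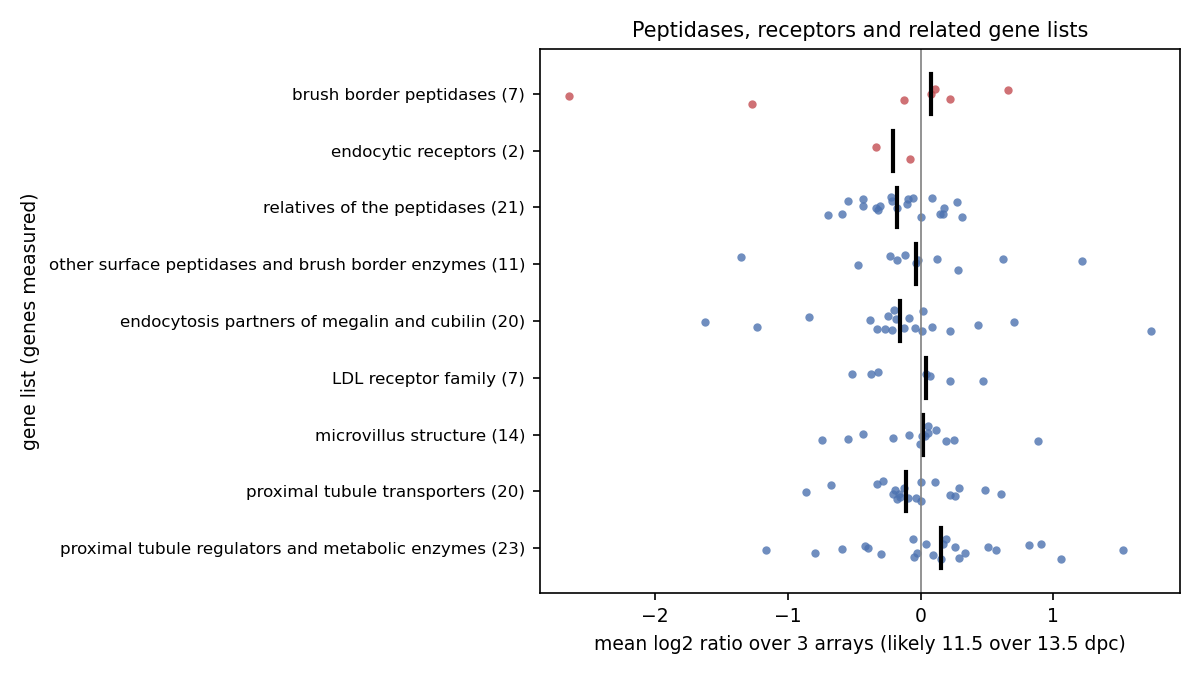
Mean log2 ratio over 3 arrays (x axis) of each measured gene in 9 lists (y axis, number of genes in brackets), with the list median as a black bar and the peptidases and receptors in red. Medians lie between -0.21 and 0.15, and Dpp4 is the point farthest to the left of all.

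The genes with log2 ratios nearest to those of Dpp4 over the 3 arrays, by Euclidean distance, were the muscle actin gene Acta1 (distance 0.59), the potassium channel gene Kcnj8 (0.63), the Notch ligand gene Dll1 (0.72), the opioid precursor gene Penk (0.79) and Pcp4 (0.87). Acta1 had -2.59, -2.86 and -1.63, and Kcnj8 had -2.61, -2.63 and -2.55. The distances rest on 3 arrays.

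Markers of other cells were described on the same arrays. Their counts of genes with 1 sign on all arrays stand beside 18.5% of all rows negative and 16.8% positive. Renal vesicle and S-shaped body markers had a median of -0.70 over 6 genes, 5 of them negative on all arrays, and endothelial markers -0.61 over 6, of which 5 were negative. Red blood cell markers had a median of 1.28 over 7 genes, all 7 positive on all arrays. Podocyte markers had -0.31 over 5, with 2 negative and 0 positive. Stromal markers had 0.16 over 8, with 3 negative and 4 positive. Macrophage and leukocyte markers had 0.099 over 7 genes, with 1 negative and 3 positive. Markers of visceral endoderm, liver and gut had -0.36 over 7, with 2 negative and 1 positive on all arrays. Fabp2 of gut epithelium had -1.13, -1.48 and -1.44. The liver genes of this list differed in sign, since Alb had -0.95, -0.33 and -0.44. Afp of visceral endoderm and fetal liver had 0.53, 0.13 and 0.18. Nephron progenitor markers had -0.22 over 6, with 4 negative and 1 positive. Ureteric bud markers had -0.092 over 9, with 3 negative and 2 positive. Proximal tubule markers had -0.078 over 8, with 2 negative and 1 positive. With array 3 turned, the medians were -0.11 for renal vesicle, -0.28 for endothelial, 0.66 for red blood cell, -0.061 for podocyte, 0.00017 for stromal and 0.14 for proximal tubule markers, and -0.13 and -0.050 for nephron progenitor and ureteric bud markers. The part of these cell types in the ratios of Dpp4, Anpep and Dpep1 was not tested.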

How the data were processed

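The deposited values are log2 ratios between the channels of each array, made by the authors; their numerator is not stated in the labels. The base followed from the values, since 2 raised to a value between -3 and 2 was a whole multiple of 0.001, within 0.02 of that step, in 100% of cases. Per the labels, images were read with Imagene 5.5, and print-tip loess or a Lowess curve was used for normalisation, with low control values set to 10. No spot intensities were used, so dim spots could not be assessed.

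Of 22702 features, 883 controls were left out. Those measured on every array (20386) were averaged by symbol to 19015 rows. Rows were tested with limma 3.58.1 in R 4.3.3 (lmFit, eBayes, two-sided). The fit was run on simulated data in which the values of each array were shuffled across rows. Shuffling removes the link between the arrays of a row, so that run does not show how the fit behaves on these rows. Nothing says that arrays came from separate extracts, so p-values measure only the spread between arrays, which may be technical, and 3 arrays limit the precision. The genes and lists were chosen with earlier results of these data known. All 9 measured genes are named, and from each other list up to 3 genes of each sign on all arrays with the smallest p (marker lists mostly by counts). Hnf4a, Slc2a2, the counts of extreme rows on arrays 2 and 3 and the contrasts between features were added after their values were seen. Array 3 is as deposited. Sequences are from RefSeq.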

Additional observations from a re-analysis of the deposited data

How the results depend on the processing

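Dpp4, Anpep, Dpep1 and Lrp2 kept the sign of their mean log2 ratio under each alternative run, with ranges of -2.93 to -1.25, -1.61 to -0.17, 0.49 to 0.86 and -0.67 to -0.020. Enpep, Mme, Mep1a, Mep1b and Cubn changed sign under 3, 3, 2, 3 and 4 alternatives. Without array 1 Enpep had 0.46 and Cubn 0.29, and without array 2 Mme had 1.31; without array 3 these had -1.03, -0.66 and -1.39. The median of the 9 genes lay between -0.66 (without array 3) and 0.29 (without array 1). The genes with 1 sign on every array numbered 3 as deposited, beside 18.5% of all rows negative and 16.8% positive. With array 3 turned they numbered 5, beside 29.2% of all rows. With 1 array left out they numbered 3 to 8, where fewer arrays had to agree. The share of all rows was not counted there, so nothing is read from those numbers. Limma passed 0 rows at an adjusted p of 0.05 in each setting it was fitted under; without adjustment, between 736 and 2669 rows had p under 0.05. With array 3 turned, the median was 0.17 for proximal tubule transporters, 0.088 for the other brush border enzymes and -0.00015 for tubule regulators, and those of the peptidase relatives and endocytosis partners stayed negative (-0.066 and -0.088). The running median along the library was chosen after the data were seen. Each log2 ratio already pairs both ages on 1 array.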
